A study of Mus musculus with 6 samples.

Results

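The genes described here encode the enzymes of the tricarboxylic acid (TCA) cycle with its main entry and exit steps, and the enzymes of mitochondrial fatty acid oxidation. They were listed by pathway with no measured value in the rule, though with earlier results of these data known, as 22 genes of the cycle and 16 genes of fatty acid oxidation. All 38 were measured, among 19938 genes in all. RNA came from macrophages grown out of the bone marrow of C57BL/6 mice for 7 days with CSF1 (M-CSF), called M(CSF1), or with CSF2 (GM-CSF), called M(CSF2). Both are growth factors that turn marrow precursors into macrophage-like cells, and the added factor is the only difference between the groups that the labels give. Affymetrix Mouse Gene 1.0 ST arrays, which carry probes along the length of each transcript, measured 3 samples per group. The labels call these biological replicates. The sources used here do not say whether mice were pooled or which markers the cells were sorted on. The p-values therefore reflect only how these samples vary, and some of that variation may be technical.

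The TCA cycle runs in the mitochondrial matrix. It joins acetyl-CoA to oxaloacetate, releases the carbon as carbon dioxide and hands the electrons to the respiratory chain. Fatty acid oxidation feeds it: acyl groups enter mitochondria bound to carnitine and are shortened stepwise into acetyl-CoA, and part of their electrons pass through the electron transfer flavoprotein. In macrophages the cycle also supplies citrate for lipid synthesis and cis-aconitate, from which the enzyme encoded by Acod1 makes itaconate, a metabolite known from inflammatory activation.

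Cycle genes differed between the groups in both directions, with more of them lower than higher in M(CSF2). Suclg2 and Sucla2 of succinyl-CoA synthetase, Idh3a of the NAD-dependent isocitrate dehydrogenase and the fumarase gene Fh1 fell by 0.61 to 1.08 on the log2 scale, and Acod1 rose by 0.86. Of the 22 cycle genes, 2 were higher, 8 lower and 12 not called at an adjusted p under 0.05 (limma with Benjamini-Hochberg adjustment over all genes). Of the 16 fatty acid oxidation genes, 1 was higher, 3 were lower and 12 were not called, with differences from -0.47 to 0.59. Over all 19938 genes, 27.5% were called, 11.9% higher and 15.6% lower. All 38 members had a mean signal above that of the median gene, and among the genes above it 48.6% were called, 20.3% higher and 28.2% lower. The count for the cycle (10 of 22) thus lay near the share among genes above the median signal. The count for fatty acid oxidation (4 of 16) lay below it. Those genes were not matched to the members in brightness. Whether the pathways differ from each other, or from other genes, was not tested.

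The median log2 difference, M(CSF2) minus M(CSF1), was -0.05 over the cycle genes and -0.01 over the fatty acid oxidation genes, beside 0.04 over all genes and -0.02 over the genes above the median signal. After quantile normalization the medians were 0.022 and 0.092, and the calls split 3 higher and 6 lower for the cycle and 2 and 2 for fatty acid oxidation. Values of the groups did not overlap for 13 cycle genes and 6 fatty acid oxidation genes, which for all genes held in 38.9%. This share was not computed for the genes above the median signal, where all members lie. A difference of at least 1.5-fold was called for 6 cycle genes (Suclg2, Idh3a, Fh1, Dld, Sucla2 and Acod1) and for Acaa2 in fatty acid oxidation, against 16.6% of all genes and 30.4% of those above the median signal. The calls of Idh3a, Sucla2, Suclg2, Fh1, Pcx, Acod1 and Acaa2 held under all 16 alternatives tried, and the other 7 of the 14 did not. Without M(CSF1) replicate 2 the cycle count went from 10 to 6. The count for fatty acid oxidation went from 4 to 1 without M(CSF1) replicate 1 or 2, and to 2 without M(CSF2) replicate 1 or 3.

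**Figure D1:**
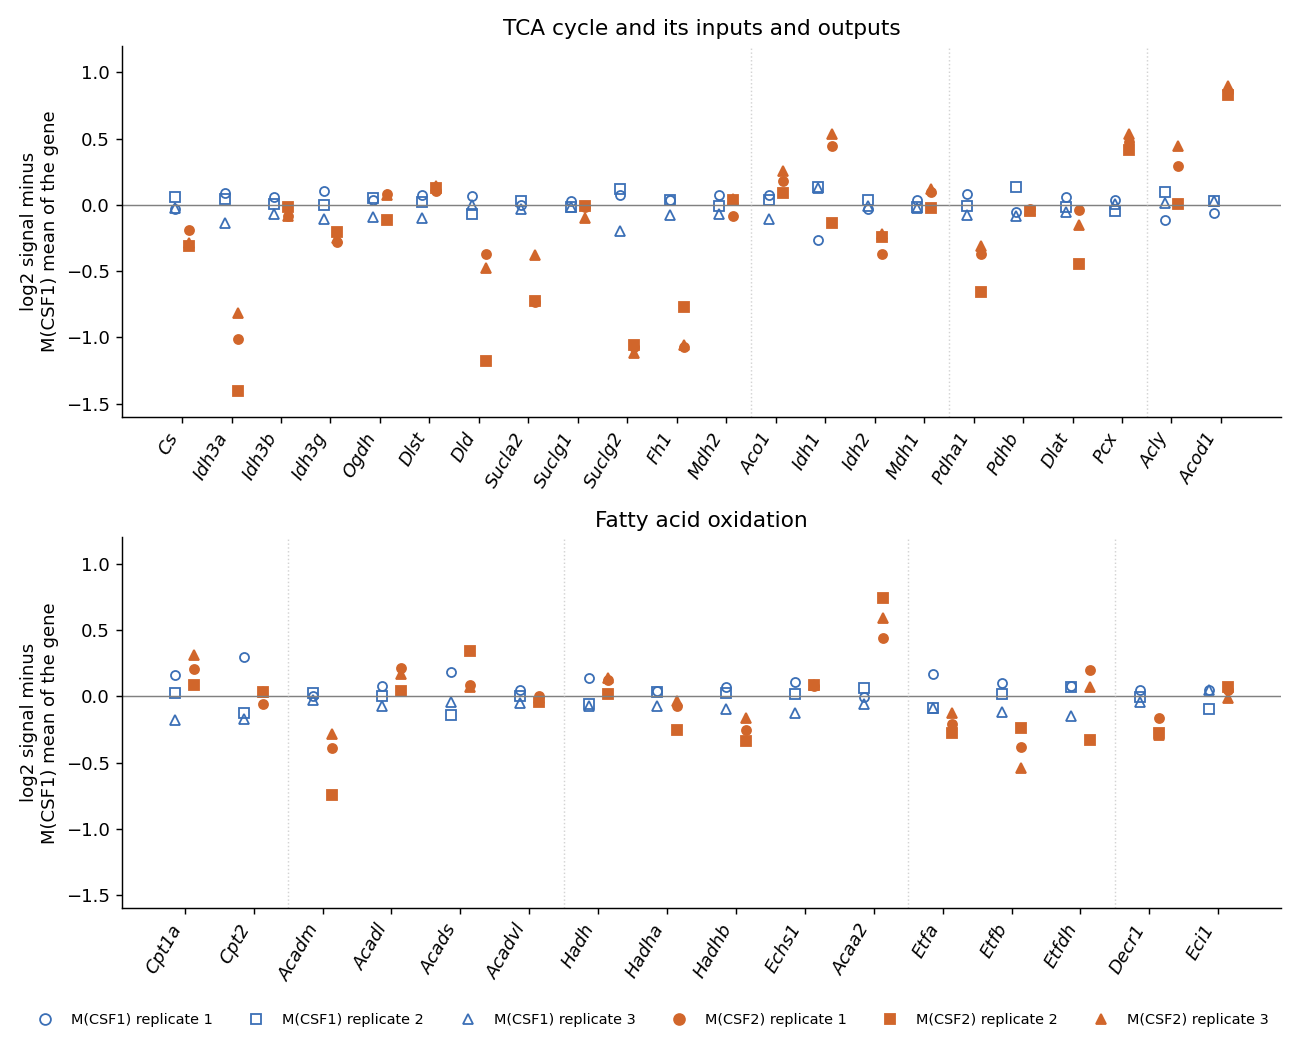
Values of each array for the 38 genes, as log2 signal minus the M(CSF1) mean of the same gene, with open symbols for the 3 M(CSF1) arrays and filled symbols for the 3 M(CSF2) arrays. Dotted lines part the roles. Suclg2, Idh3a and Fh1 lay lowest in M(CSF2) and Acod1 highest, while most fatty acid oxidation genes lay close to 0.

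The arrays of a group were close but not equal. Correlations over all probe sets were 0.9948 to 0.9968 within groups and 0.9543 to 0.9593 between them. M(CSF2) replicate 2 was the lowest of its 3 arrays for 22 of the 38 members, and for 43.9% of the genes above the median signal. M(CSF1) replicate 3 was the lowest of its group for 28 of 38, and for 59.1% of those genes. All 8 macrophage markers lay above the level of olfactory receptor genes (3.36 on the log2 scale, their 95th percentile) in both groups. Of these 8, Csf1r and Cd68 were higher in M(CSF2), Adgre1, Fcgr1, Lyz2 and Spi1 were lower and Itgam and Mertk were not called. Their summed linear signal was 16100 to 16800 in M(CSF1) and 12800 to 13300 in M(CSF2). Genes of dividing cells were lower in M(CSF2) for 11 of 11 measured, with sums of 2640 to 2990 against 782 to 833. Mast cell and basophil markers summed to 79.5 to 99.6 against 499 to 583, with 4 of 8 higher and 4 not called. The higher ones were Hdc (21.5-fold), Gata2 (5.74-fold), Kit (2.49-fold) and Mcpt8. Cpa3, Mcpt4, Mcpt8, Fcer1a and Ms4a2 lay at or below the olfactory receptor level in both groups. Neutrophil markers summed to 150 to 168 against 327 to 537, with 2 of 9 higher, S100a8 (5.17-fold) and Ltf. The other 7 were not called, S100a9 (-0.34) among them. Ly6g, Ltf, Ngp and Cxcr2 lay at or below that level in both groups. Sums for the markers of stromal cells, dendritic cells, eosinophils, lymphocytes and erythroid cells lay between 30.7 and 261 in both groups. In these lists 1 dendritic cell gene was higher, Clec9a, which lay at or below the olfactory receptor level in both groups. The stromal gene Dcn was 9.85-fold higher and Postn 7.53-fold lower. The part of these markers in the results below was not tested. In such bulk RNA, fewer cells of a type and less RNA per cell cannot be told apart.

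Promoters of Fh1, Suclg2 and Acod1 are shown because, among members with a promoter sequence, these genes carry the largest falls and the largest rise. The Hadhb promoter is shown because it shares bases with that of its partner Hadha. Each promoter shown runs 5′ to 3′ from 250 bases before to 50 after the start of the gene (RefSeq, GRCm38.p6). The Fh1 window is chr1:175625586-175625885 on the minus strand, the Suclg2 window chr6:95718797-95719096 on the minus strand, the Acod1 window chr14:103046762-103047061 on the plus strand and the Hadhb window chr5:30155003-30155302 on the plus strand. Capitals mark matches to 1 of 11 motifs searched on both strands.
Fh1: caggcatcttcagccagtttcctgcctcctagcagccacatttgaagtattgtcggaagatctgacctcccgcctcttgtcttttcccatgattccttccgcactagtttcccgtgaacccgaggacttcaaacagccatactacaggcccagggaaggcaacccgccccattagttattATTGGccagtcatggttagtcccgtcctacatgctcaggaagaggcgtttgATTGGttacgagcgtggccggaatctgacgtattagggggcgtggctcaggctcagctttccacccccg
Suclg2: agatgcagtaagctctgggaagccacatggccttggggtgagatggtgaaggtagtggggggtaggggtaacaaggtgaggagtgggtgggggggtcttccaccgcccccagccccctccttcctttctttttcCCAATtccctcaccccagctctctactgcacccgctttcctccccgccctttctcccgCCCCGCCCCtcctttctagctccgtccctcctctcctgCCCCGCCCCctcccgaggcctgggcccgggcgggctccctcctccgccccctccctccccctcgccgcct
Acod1: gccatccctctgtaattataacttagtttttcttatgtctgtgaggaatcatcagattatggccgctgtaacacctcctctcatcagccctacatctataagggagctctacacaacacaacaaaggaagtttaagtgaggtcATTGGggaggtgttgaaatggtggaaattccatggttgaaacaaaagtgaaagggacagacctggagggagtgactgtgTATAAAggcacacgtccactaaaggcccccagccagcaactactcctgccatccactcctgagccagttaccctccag
Hadhb: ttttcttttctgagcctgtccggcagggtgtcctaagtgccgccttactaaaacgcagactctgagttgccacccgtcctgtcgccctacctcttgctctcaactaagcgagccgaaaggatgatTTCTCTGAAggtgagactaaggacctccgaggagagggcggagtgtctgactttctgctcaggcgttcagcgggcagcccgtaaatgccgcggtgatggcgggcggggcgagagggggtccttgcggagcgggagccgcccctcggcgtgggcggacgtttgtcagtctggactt
In Fh1 the capitals are CCAAT boxes read on the other strand. In Suclg2 they are 1 CCAAT box and 2 GC boxes (GGGGCGGGG, read on the other strand). In Acod1 they are a CCAAT box and a TATA box (TATAAA), and in Hadhb a STAT motif (TTCNNNGAA). GC content was 54.3% for Fh1, 67.7% for Suclg2, 60.7% for Hadhb and 47% for Acod1. Acod1 and Dld (47%) were lowest among the 35 members with a promoter sequence. No promoter sequence was at hand for Idh3a (-1.08), Acaa2 (0.59) or Decr1 (-0.24), all called, so the motif counts leave them out.

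The member promoters had a median GC content of 61.3% (47% to 70.3%), and the first listed promoters of all 27025 genes had 52.7%. A CCAAT box was found in 18 of 35 member promoters and in 37.9% of all, and a GC box in 9 of 35 and in 11.6% of all. The TATA box was present in 1 of 35 (Acod1) and in 14.2% of all. The STAT motif occurred in 3 (Cpt2, Hadha and Hadhb) and in 8.47% of all. The Hadhb match lies in the bases shared with the Hadha window, so the same match is counted for both genes. The nuclear receptor motif AAGGTCA was in 1 (Acadm) and in 4.66% of all. The E-box CACGTG was in 1 (Pcx) and in 7.24% of all, the ETS motif CCGGAAGT in 2 (Cpt2 and Dlst) and in 4% of all, and the CRE motif TGACGTCA in 2 (Mdh2 and Ogdh) and in 1.88% of all. The NRF1 motif was in 1 (Etfdh) and in 0.977% of all. The YY1 motif (0.699% of all) and the NF-kB motif (1.43% of all) had no match in the member windows. These matches are descriptions of letters in the window, and none was tested against the expression values.

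Of the 12 member genes for turning the cycle, 6 were lower in M(CSF2) and none higher (limma, adjusted p under 0.05). Among all genes above the median signal 20.3% were higher and 28.2% lower. Some of the 12 encode subunits of 1 enzyme. Succinate dehydrogenase also turns the cycle but is not among the 12. Of its subunits, given below, Sdhd was higher, Sdha lower and 2 not called. Citrate synthase, Cs, which makes citrate from acetyl-CoA and oxaloacetate, read 9.28, 9.37 and 9.29 in M(CSF1) and 9.12, 9.0 and 9.02 in M(CSF2). All 3 M(CSF2) values lay below all M(CSF1) values by a small margin. The difference was -0.26 (SE 0.07, limma adjusted p = 0.0258). The call of Cs was lost without M(CSF1) replicate 2 (0.0914), M(CSF2) replicate 2 (0.0667) or M(CSF2) replicate 3 (0.0729), all adjusted p. It was 0.11 after quantile normalization, and with the replicate number as a block it was 0.0854.

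The NAD-dependent isocitrate dehydrogenase, which releases the first carbon dioxide of the cycle, has 3 subunit genes, of which 1 was called. Idh3a, the catalytic subunit, read 7.95, 7.90 and 7.73 in M(CSF1) and 6.84, 6.45 and 7.04 in M(CSF2). M(CSF2) replicate 2 was lowest, and even the highest M(CSF2) array lay below all M(CSF1) arrays. Idh3a was 2.11-fold lower (95% interval 1.66 to 2.69, limma adjusted p = 0.00111). The other subunits structure and regulate the enzyme. Idh3b gave -0.06 (95% interval -0.22 to 0.10, adjusted p = 0.592) and Idh3g -0.25 (-0.43 to -0.06, adjusted p = 0.0527). Idh3g passed the threshold without M(CSF1) replicate 3 (-0.30, adjusted p = 0.0273) and when only genes above the median signal were tested (adjusted p = 0.0476).

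The 2-oxoglutarate dehydrogenase complex takes the next step. Its first 2 components gave little difference, 0.02 for Ogdh (95% interval -0.18 to 0.21, limma adjusted p = 0.908) and 0.13 for Dlst (-0.04 to 0.29, adjusted p = 0.257). Dld, the dihydrolipoamide dehydrogenase that this complex shares with pyruvate dehydrogenase, read 7.25, 7.11 and 7.18 in M(CSF1) and 6.81, 6.00 and 6.71 in M(CSF2). The groups did not overlap, and M(CSF2) replicate 2 lay far below the other 2. Dld was 1.6-fold lower (95% interval 1.16 to 2.19, adjusted p = 0.0384). The difference went from -0.67 to -0.42 with M(CSF2) replicate 2 left out (adjusted p = 0.0116), and the call was lost without M(CSF1) replicate 1, 2 or 3 or M(CSF2) replicate 3 (adjusted p = 0.147, 0.112, 0.105 and 0.0553).

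Succinyl-CoA synthetase makes succinate and a nucleoside triphosphate, and pairs a common alpha subunit, Suclg1, with a beta subunit that sets the nucleotide. Both beta subunits fell and the alpha subunit was not called. Suclg2, the GTP-forming beta subunit, read 5.86, 5.91 and 5.59 in M(CSF1) and 4.72, 4.73 and 4.67 in M(CSF2). The M(CSF2) arrays were almost equal and far below all M(CSF1) arrays, a 2.12-fold difference (95% interval 1.81 to 2.47, limma adjusted p = 0.000104). A dimmer probe set of Suclg2 gave -0.92 (adjusted p = 0.000292 over all probe sets). Sucla2, the ATP-forming beta subunit, read 6.45, 6.49 and 6.43 against 5.73, 5.74 and 6.08. M(CSF2) replicate 3 stood highest in its group and still below every M(CSF1) array, and the difference was 1.53-fold (95% interval 1.29 to 1.81, adjusted p = 0.00347). Suclg1 gave -0.04 (95% interval -0.19 to 0.11, adjusted p = 0.698).

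Fumarase, Fh1, which hydrates fumarate to malate, read 8.20, 8.20 and 8.09 in M(CSF1) and 7.09, 7.39 and 7.11 in M(CSF2). The groups lay well apart, and here M(CSF2) replicate 2 was the highest array of its group. Fh1 was 1.96-fold lower (95% interval 1.67 to 2.29, limma adjusted p = 0.00021). Mdh2, the mitochondrial malate dehydrogenase that closes the cycle, had a mean of 10.09 ± 0.07 in both groups (SD, n = 3 arrays each). Its difference was 0.00 with a 95% interval of -0.17 to 0.17 (adjusted p = 0.998).

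**Figure D2:**
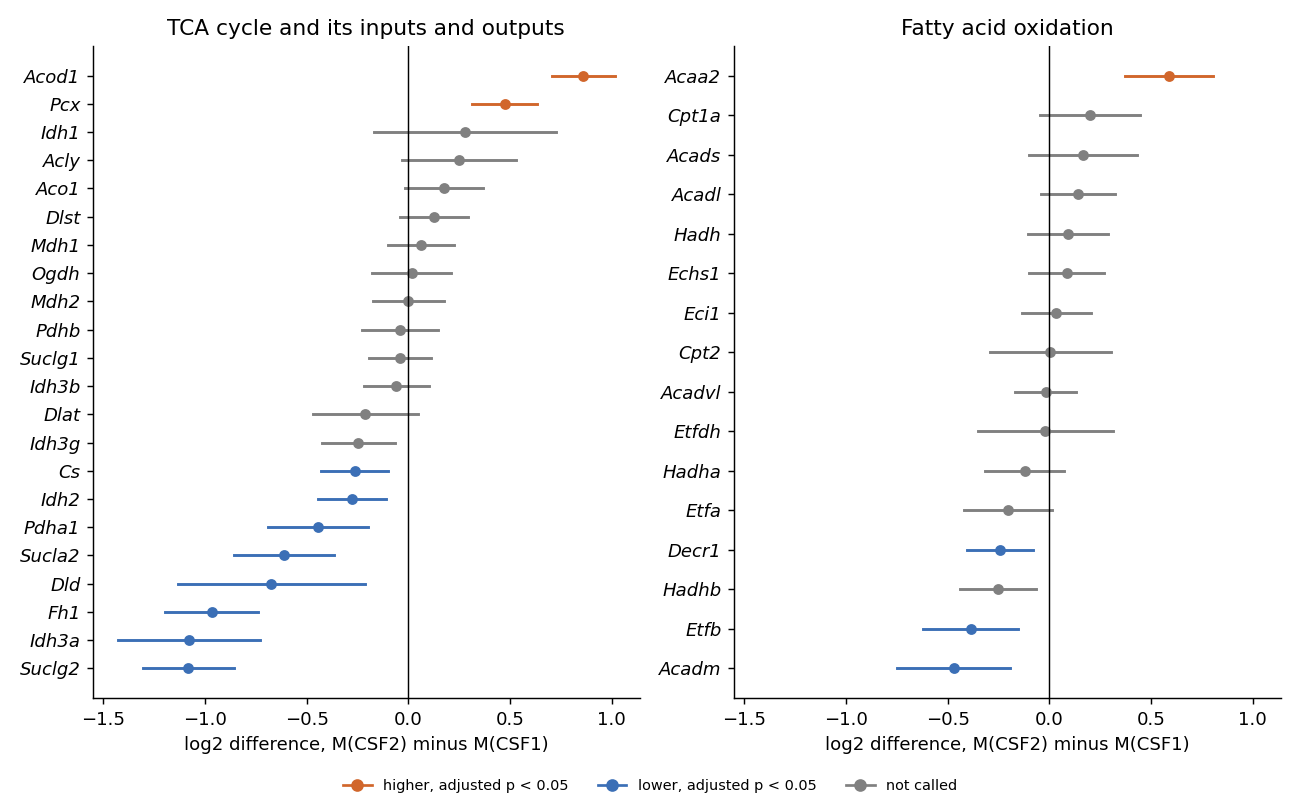
Log2 differences, M(CSF2) minus M(CSF1), with 95% intervals from limma over 3 arrays per group, for the cycle genes (left) and the fatty acid oxidation genes (right). Colours show genes higher, lower or not called at an adjusted p under 0.05. The differences ran from -1.08 (Suclg2) to 0.86 (Acod1) in the cycle and from -0.47 (Acadm) to 0.59 (Acaa2) in fatty acid oxidation.

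Of the isocitrate dehydrogenases that use NADP and the cytosolic partners of cycle enzymes, 1 of 4 was called, Idh2. Idh1, the cytosolic and peroxisomal enzyme, read 7.45, 7.85 and 7.85 in M(CSF1) and 8.16, 7.58 and 8.25 in M(CSF2). The groups overlapped, with M(CSF1) replicate 1 and M(CSF2) replicate 2 both low. The difference was 0.28 with the widest interval of the uncalled cycle genes (-0.17 to 0.73, limma adjusted p = 0.351). For Idh1 it ran from 0.147 without M(CSF1) replicate 1 (adjusted p = 0.7) to 0.489 without M(CSF2) replicate 2 (adjusted p = 0.0588). Idh2, its mitochondrial counterpart, read 7.62, 7.70 and 7.65 against 7.29, 7.41 and 7.44. Every M(CSF2) array lay below every M(CSF1) array, and Idh2 gave -0.28 (SE 0.07, adjusted p = 0.0238). Its adjusted p was 0.086 without M(CSF1) replicate 2, 0.0624 without M(CSF2) replicate 1, 0.101 after quantile normalization and 0.0649 with the replicate block. Aco1, the cytosolic aconitase that also serves as an iron sensor, gave 0.18 (adjusted p = 0.168), and 0.28 after quantile normalization (adjusted p = 0.0131). Mdh1, the cytosolic malate dehydrogenase, gave 0.06 (95% interval -0.10 to 0.23, adjusted p = 0.572).

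Pyruvate enters the cycle through 2 doors. Pcx, pyruvate carboxylase, which makes oxaloacetate and so refills the cycle, rose from 4.80 ± 0.04 to 5.28 ± 0.06 (SD, n = 3 arrays each, limma adjusted p = 0.0014), a 1.39-fold difference. On the side of pyruvate dehydrogenase, which makes acetyl-CoA, the alpha subunit Pdha1 fell by 0.44 (SE 0.11, adjusted p = 0.0156). Without M(CSF1) replicate 1 or 2 its adjusted p was 0.0709 and 0.064. The beta subunit Pdhb gave -0.04 (95% interval -0.23 to 0.15, adjusted p = 0.768) and the acetyltransferase Dlat -0.21 (-0.47 to 0.05, adjusted p = 0.218).

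Acod1, which diverts cis-aconitate from the cycle into itaconate, read 10.79, 10.88 and 10.88 in M(CSF1) and 11.71, 11.68 and 11.75 in M(CSF2). It was bright in every array, and the groups were narrow and apart. Acod1 was 1.82-fold higher in M(CSF2) (95% interval 1.63 to 2.02, limma adjusted p = 5.08e-05), the largest rise among the 38 genes. Acly, which splits exported citrate into cytosolic acetyl-CoA, read 7.78, 7.99 and 7.91 against 8.19, 7.90 and 8.34. M(CSF2) replicate 2 fell within the M(CSF1) range. Acly gave 0.25 (95% interval -0.03 to 0.53, adjusted p = 0.182). With M(CSF2) replicate 2 left out it gave 0.37 and passed the threshold (adjusted p = 0.0375).

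Subunits of 1 enzyme were compared within each array, as the log2 value of 1 gene minus that of another, over 16 pairs of partners or isoenzymes. With 3 arrays against 3 the smallest 2-sided exact permutation p is 0.1, which 11 pairs gave, and after adjustment over the 16 pairs these stood at 0.145, so none passed. Relative to Idh3b, Idh3a changed by -1.02, and relative to Idh3g by -0.83. Relative to Suclg1, Suclg2 changed by -1.04 and Sucla2 by -0.57. Relative to Dld, Ogdh changed by 0.69 and Dlst by 0.80, and these became 0.50 and 0.55 without M(CSF2) replicate 2. Pdha1 changed by -0.40 relative to Pdhb. Hadha of the trifunctional protein changed by 0.13 relative to Hadhb, and the groups did not overlap (exact permutation p = 0.1). Idh3b changed by 0.19 relative to Idh3g, also without overlap (exact permutation p = 0.1). The groups overlapped for Mdh1 relative to Mdh2 (0.06, exact permutation p = 0.5) and Etfa relative to Etfb (0.18, p = 0.3). They also overlapped for Idh1 relative to Idh2 (0.56, exact permutation p = 0.2).

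**Figure D3:**
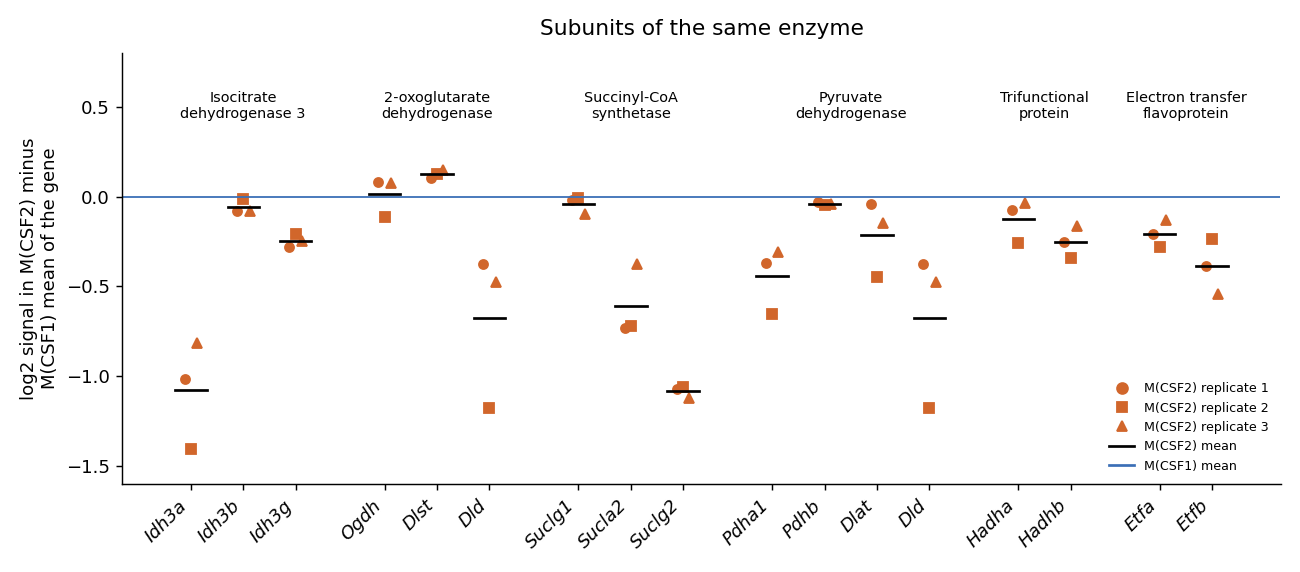
Subunits of 6 enzymes in the 3 M(CSF2) arrays, as log2 signal minus the M(CSF1) mean of the same gene (blue line at 0), with black bars for the M(CSF2) means. Idh3a, Dld, Sucla2 and Suclg2 lay below partners such as Idh3b (-0.06), Dlst (0.13) and Suclg1 (-0.04).

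Entry of fatty acids into mitochondria showed no called difference. Cpt1a, the carnitine acyltransferase of the outer membrane that controls the rate of entry, read 6.88, 6.74 and 6.54 in M(CSF1) and 6.92, 6.81 and 7.03 in M(CSF2). The groups overlapped, with M(CSF1) replicate 1 inside the M(CSF2) range. Cpt1a gave 0.20 (95% interval -0.05 to 0.45, limma adjusted p = 0.222), and 0.31 after quantile normalization (adjusted p = 0.0153). Cpt2, its partner on the inner membrane, gave 0.00 (-0.29 to 0.30, adjusted p = 0.985).

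The acyl-CoA dehydrogenases begin each round of shortening and differ in the chain length they take. Acadm, for medium chains, fell from 7.40 ± 0.03 to 6.93 ± 0.24 (SD, n = 3 arrays each), a difference of -0.47 (limma adjusted p = 0.0207). Its call was lost without M(CSF1) replicate 1, 2 or 3 or M(CSF2) replicate 1 (adjusted p = 0.0784, 0.0875, 0.0572 and 0.0541). The long-chain enzyme Acadl gave 0.14 (95% interval -0.04 to 0.33), the short-chain enzyme Acads 0.17 (-0.10 to 0.43) and the very-long-chain enzyme Acadvl -0.02 (-0.17 to 0.13). None of these passed the threshold (adjusted p = 0.247, 0.349 and 0.876).

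Of the enzymes that hydrate, oxidise and cleave the shortened chain, 1 of 5 was called. Acaa2, the thiolase that releases acetyl-CoA, read 6.22, 6.29 and 6.17 in M(CSF1) and 6.66, 6.97 and 6.81 in M(CSF2). All M(CSF2) arrays lay above all M(CSF1) arrays, with replicate 2 highest. Acaa2 was 1.5-fold higher in M(CSF2) (95% interval 1.3 to 1.75, limma adjusted p = 0.0021). The trifunctional protein subunits Hadha and Hadhb, whose starts lie 273 bases apart on opposite strands and whose promoter windows share 228 bases, gave -0.12 (adjusted p = 0.35) and -0.25 (adjusted p = 0.053). Hadhb passed the threshold without M(CSF1) replicate 3 (-0.30, adjusted p = 0.0371), and when dim genes were left out (adjusted p = 0.0492 above the olfactory receptor level and 0.0452 above the median signal). A second Hadhb probe set gave -0.23 (adjusted p = 0.0831 over all probe sets). The hydratase Echs1 gave 0.08 (95% interval -0.10 to 0.27) and the dehydrogenase Hadh 0.09 (-0.10 to 0.29).

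The electron transfer flavoprotein carries electrons from the acyl-CoA dehydrogenases. Its beta subunit Etfb fell by 0.39 (SE 0.10, limma adjusted p = 0.0238), and the call was lost without M(CSF1) replicate 1 or 2 or M(CSF2) replicate 1 or 3 (adjusted p = 0.0938, 0.0916, 0.0803 and 0.0729). The alpha subunit Etfa gave -0.21 (95% interval -0.42 to 0.01, adjusted p = 0.159) and the membrane dehydrogenase Etfdh, which passes the electrons to ubiquinone, -0.02 (-0.35 to 0.31, adjusted p = 0.94). Of the enzymes needed for unsaturated fatty acids, the reductase Decr1 fell by 0.24 (SE 0.07, adjusted p = 0.0367) and the isomerase Eci1 gave 0.03 (95% interval -0.13 to 0.20). The call of Decr1 was lost with an intensity trend (adjusted p = 0.0669), after quantile normalization (0.124), with the replicate block (0.0919), and without M(CSF1) replicate 1 or 2 or M(CSF2) replicate 2 or 3 (0.0973, 0.0972, 0.0863 and 0.102). For all 12 uncalled fatty acid oxidation genes, and for 11 of the 12 uncalled cycle genes (Idh1 being the exception), the 95% interval of the difference lay within 1.5-fold in either direction.

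Genes around the pathways were taken from 8 lists with 101 genes, 92 of them measured, of which 11 were higher, 29 lower and 52 not called. The shares over all genes against which these and the following list counts are read were 11.9% higher and 15.6% lower, or 20.3% and 28.2% among genes above the median signal. The remaining measured cycle enzymes were the 4 subunits of succinate dehydrogenase, which links the cycle to the respiratory chain. The membrane anchor Sdhd was 1.69-fold higher (limma adjusted p = 0.000565), and the flavoprotein Sdha fell by 0.41 (adjusted p = 0.0141). The call of Sdha was lost without M(CSF1) replicate 1 or 2 or M(CSF2) replicate 2 (adjusted p = 0.0532, 0.065 and 0.0562). Sdhb gave -0.08 and Sdhc -0.01 (adjusted p = 0.505 and 0.928). For pyruvate supply and pyruvate dehydrogenase control, 2 of 9 were higher and 2 lower. Mpc1, a subunit of the mitochondrial pyruvate carrier, read 7.70, 7.85 and 7.51 in M(CSF1) and 8.47, 8.55 and 8.69 in M(CSF2). Mpc1 was thus 1.85-fold higher (adjusted p = 0.000499), with all M(CSF2) arrays above all M(CSF1) arrays. Pdk2, a kinase that switches pyruvate dehydrogenase off, rose by 0.57 (adjusted p = 0.019). Pdhx, which anchors Dld in the complex, fell by 0.68 (adjusted p = 0.00271), and the phosphatase Pdp2 by 0.46 (adjusted p = 0.0438). The Pdp2 signal was dim, with means of 3.92 in M(CSF1) and 3.46 in M(CSF2) beside the olfactory receptor level of 3.36. Pdk2 lost its call without M(CSF1) replicate 2 or any 1 M(CSF2) array (adjusted p = 0.0653 to 0.0863), and Pdp2 without any array but M(CSF1) replicate 3 (0.0942 to 0.165).

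Among malic enzymes, transaminases, carriers and glutamine entry, 1 of 13 was higher and 5 lower. Slc25a10, the mitochondrial carrier that exchanges malate and succinate for phosphate, read 10.01, 9.97 and 9.81 in M(CSF1) and 7.59, 7.86 and 7.61 in M(CSF2). This was the largest difference among the 38 members and the 92 neighbouring genes, 4.72-fold lower in M(CSF2) (95% interval 4.03 to 5.54, limma adjusted p = 3.33e-06). Glutamate dehydrogenase, Glud1, fell by 0.91 and the mitochondrial malic enzyme Me2 by 0.91 (adjusted p = 9.4e-05 and 0.000308). The cytosolic aspartate transaminase Got1 rose by 0.76 (adjusted p = 0.000689).

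Fatty acid uptake and activation had 1 of 10 higher and 2 lower. The fatty acid transport protein gene Slc27a4 was 3.34-fold higher in M(CSF2) and the acyl-CoA synthetase Acsl5 2.57-fold lower (limma adjusted p = 6.85e-06 and 6.83e-06). The carnitine acetyltransferase Crat fell by 0.36 (adjusted p = 0.00518). In peroxisomes, which oxidise fatty acids that mitochondria handle poorly, 1 of 12 was higher and 2 lower. Acox3, an acyl-CoA oxidase for branched chains, read 6.46, 6.58 and 6.51 in M(CSF1) and 8.56, 8.29 and 8.54 in M(CSF2), 3.85-fold higher with groups far apart (adjusted p = 4.57e-06). Hsd17b4, the bifunctional enzyme, fell by 0.46 (adjusted p = 0.00134) and the thiolase and lipid carrier Scp2 by 0.42 (adjusted p = 0.0427). The call of Scp2 was lost after quantile normalization (adjusted p = 0.0595) and without any array but M(CSF1) replicate 3 (0.0788 to 0.151).

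Other mitochondrial acyl-CoA enzymes had 3 of 13 higher and 4 lower. The acetoacetyl-CoA thiolase Acat1 fell by 0.95, the propionyl-CoA carboxylase subunit Pccb by 0.82 and Acad9, which also helps assemble respiratory complex I, by 0.44 (limma adjusted p = 0.000182, 0.000395 and 0.00306). Acad12 and Acad10, of the acyl-CoA dehydrogenase family, rose by 0.61 and 0.49 and the isovaleryl-CoA dehydrogenase Ivd by 0.44 (adjusted p = 0.00733, 0.0379 and 0.00493). Acad10 lost its call without M(CSF1) replicate 1 or 2 or M(CSF2) replicate 2 or 3 (adjusted p = 0.105 to 0.15). Of 13 regulators, 2 were higher and 3 lower. The nuclear receptor Ppard, which switches on fatty acid oxidation genes, was 2.59-fold higher and its partner Rxra 1.46-fold higher (adjusted p = 0.000149 and 0.00234). The catalytic AMP-activated kinase subunit Prkaa1 fell by 0.94 and the nuclear receptor Pparg by 0.75 (adjusted p = 0.000813 and 0.00479). The acetyl-CoA carboxylase Acaca, whose product malonyl-CoA inhibits carnitine entry, fell by 0.88 (adjusted p = 0.00413). Acacb, the other acetyl-CoA carboxylase listed, gave 0.19 and was not called (adjusted p = 0.1).

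As a set of general mitochondrial genes, import, membrane and DNA upkeep genes had 0 of 18 higher and 10 lower at a limma adjusted p under 0.05, with a median difference of -0.30. Among all genes 15.6% were lower, and among those above the median signal 28.2%. The count of 10 became 6 without M(CSF1) replicate 2 or without M(CSF2) replicate 1. The import receptor Tomm70a fell by 0.98, the matrix chaperonin Hspd1 by 0.94 and the fusion protein Opa1 by 0.75 (adjusted p = 0.00107, 0.000406 and 0.0127). Opa1 lost its call without M(CSF1) replicate 1 or 2 or M(CSF2) replicate 1 (adjusted p = 0.0708, 0.0662 and 0.0559). The 12 member genes for turning the cycle, succinate dehydrogenase left out, had a median of -0.25. The 18 general mitochondrial genes had one of -0.30, and these are given side by side with no test.

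**Figure D4:**
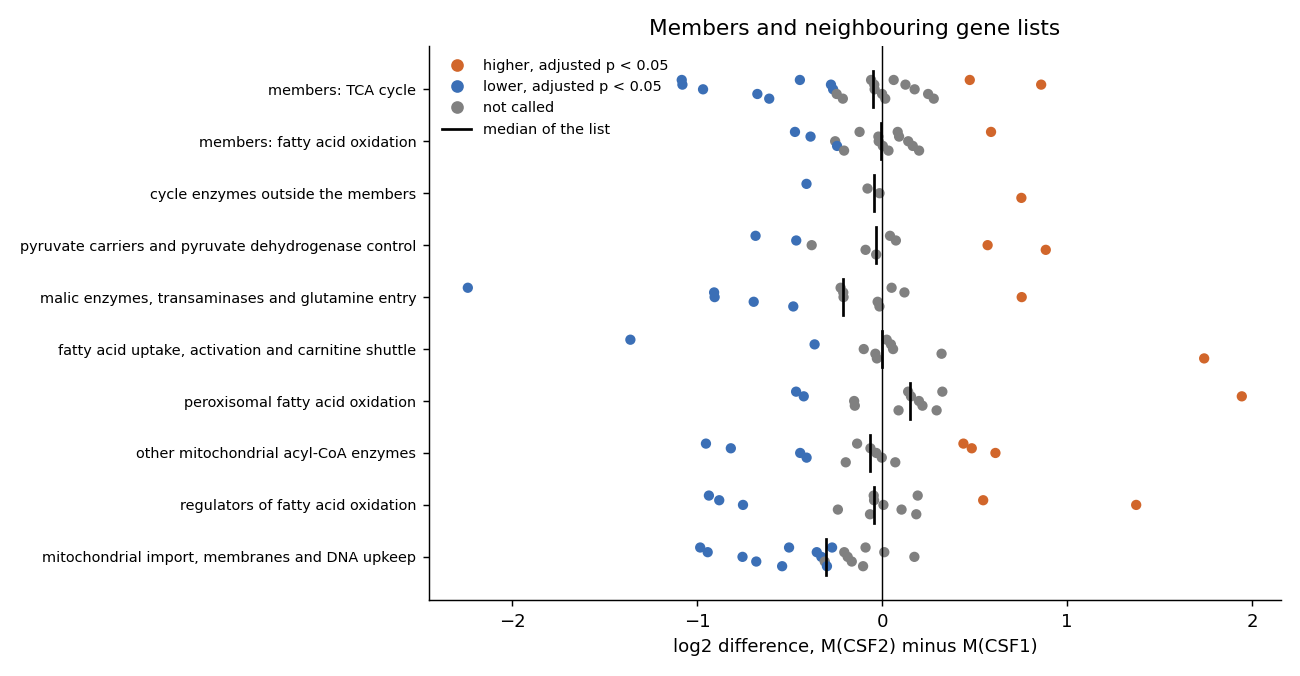
Log2 differences, M(CSF2) minus M(CSF1), of the members and of the neighbouring gene lists, 1 point per gene, coloured by call at an adjusted p under 0.05, with a black bar at each list's median. Slc25a10 (-2.24), Acsl5 (-1.36), Ppard (1.37), Slc27a4 (1.74) and Acox3 (1.95) lay farthest from 0.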

How the data were processed

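For each of 28941 probe sets the authors deposited a log2 signal from every array. The scale is stated nowhere in the labels, and base 2 was taken because values ran from 1.48 to 13.27. The submitters' processing notes name MAS5, a method for arrays with paired mismatch probes, which Gene 1.0 ST arrays lack, so how the values were made is unsure. Background correction, normalization and summary of probes are not given in the sources used here, and detection calls are not used here. Gene names came from GEO's annotation of the platform, with symbols updated by Entrez identifier to a RefSeq table (21698 of 21789 probe sets with exactly 1 gene were found). Probe sets with several genes (1621) or no name (5531) were left out, and the probe set with the highest mean stood for a gene. Acod1 is Irg1 in the older annotation.

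All 19938 genes went into 1 limma fit (version 3.58.1, R 4.3.3, lmFit and eBayes, 2-sided), with Benjamini-Hochberg adjustment over all of them, and the threshold for a call was an adjusted p of 0.05. Folds are 2 raised to the difference of the deposited log2 values. The number of arrays limits the precision. The code was tested on simulated data. The labels give the samples only a shared number across groups (correlations of deviations for same-numbered arrays 0.00391, -0.0441 and -0.253). Whether they were paired is unsure, and the replicate block served as an alternative. Other alternatives were quantile normalization, median centring, filters on dim genes, other uses of probe sets, an intensity trend, a robust prior, a threshold of 0.01 and leaving out each array. Members, lists and motifs were chosen with earlier results of these data known. All 38 members were named, and up to 3 higher and 3 lower called genes per neighbouring list, with values of every array for members called at 1.5-fold or more and for Cpt1a, Acod1, Acly, Cs, Idh1 and Idh2. Array values of Mpc1, Slc25a10 and Acox3 were added after they were seen. Sdhb, Sdhc and Acacb were named though not called. Some listed genes were not analysed here.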

Additional observations from a re-analysis of the deposited data

How the results depend on the processing

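For the 38 members under 16 alternatives, 563 of 608 results kept their side of the threshold, 37 called results missed it and 8 uncalled ones passed it. The sign of the difference changed in 26 of the 608, all in 9 uncalled members close to 0 (Mdh2, Cpt2, Ogdh, Etfdh, Pdhb, Acadvl, Eci1, Idh3b and Suclg1), and in no called member. Of the 14 called members, 7 kept the call throughout, and 19 of the 24 uncalled members were never called. Quantile normalization moved the median difference from -0.05 to 0.022 over the cycle genes and from -0.01 to 0.092 over the fatty acid oxidation genes. At the stricter threshold of 0.01, 6 cycle genes and 1 fatty acid oxidation gene were called, the fewer calls following from the threshold itself. Leaving out each array in turn gave 6 to 10 called cycle genes, 1 to 4 called fatty acid oxidation genes, 30 to 44 called neighbouring genes and 4254 to 5490 called genes in all, and a fit with fewer arrays has fewer degrees of freedom. The corresponding medians were -0.09 to -0.04 for the cycle and -0.06 to 0.04 for fatty acid oxidation. With the replicate number as a block, 8 cycle genes, 3 fatty acid oxidation genes and 5072 genes in all were called. The block ended the calls of Cs, Idh2 and Decr1, given with their values in the report, and no other member's. Deviations of same-numbered arrays correlated at -0.253 to 0.00391 and those of other pairs at -0.186 to 0.212. With only 3 arrays per group, these values cannot show whether equal numbers stand for paired samples. Signal over background was judged only against the olfactory receptor level, and groups of 3 arrays were not tested for single outlying values.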
